A study of Mus musculus with 2 samples.

Results

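Adhesion receptors were followed as a set of 41 genes: 16 integrin subunits, 7 cadherins, 11 receptors of the immunoglobulin type, Cd44, Cd47, 3 tetraspanins and the kinase genes Ilk and Ptk2. They were taken by symbol, with no threshold on measured values, and 39 of them were among the 12393 genes that had a probe set of their own on the array. The data were 2 Affymetrix arrays of LM8 cells, a line of mouse osteosarcoma that spreads to the lung. One array held RNA of a clone stably transfected with pcDNA3.1 containing the complete cDNA of human PHD4 (hPHD4 cells), and the other held RNA of a clone that received pcDNA3.1 without insert (control cells). Both clones were selected with 0.5 mg/ml G418, and each condition was 1 clone, so a difference between the conditions and a difference between any 2 clones cannot be told apart. PHD4 is a prolyl hydroxylase of the endoplasmic reticulum membrane, named alongside the prolyl hydroxylases through which oxygen controls hypoxia-inducible factor (HIF). The comparison asked whether expression differed between cells that overexpress it and cells that do not.

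Integrins are receptors made of an alpha and a beta chain that tie the extracellular matrix to the actin cytoskeleton, and the pair of chains sets which ligand is bound. Cadherins join neighbouring cells through calcium-dependent contacts and hold catenins on their inner side. Receptors of the immunoglobulin type, such as nectins and junctional adhesion molecules (JAMs), bind one another across cell contacts. Tetraspanins organise integrins in the membrane, and integrin-linked kinase (Ilk) and focal adhesion kinase (FAK, the product of Ptk2) act beneath clustered integrins.

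The values were log2 MAS5 signals per probe set, and linear signals are their powers of 2. A probe set was taken as above background when it exceeded the floor of its array, the 40th percentile of the non-control probe sets, which was a linear signal of 81.1 in hPHD4 cells and 67.8 in control cells. A gene was measured when at least 1 probe set exceeded the floor in both clones, and its log2 ratio, hPHD4 over control cells, was the mean over those probe sets. With 1 array per clone there were no replicates, no test and no p-value. Where a gauge of error is given, it is how far probe sets for one gene disagree, as an SD of their log2 ratios: 0.40 for the dimmest, 0.37 for the middle and 0.28 for the brightest of 3 equal groups of measured genes, pooled over 2800 genes. It leaves out differences between cultures, labellings and arrays. The SD describes single probe sets, while a gene ratio set beside it is a mean over 1 or more of them. A ratio within or beyond the SD therefore does not mean the same for every gene. No probe set was assigned to the introduced gene, so the clone labels were not checked against it. Of 8 osteoblast markers with a probe set, 6 were measured: Sp7, Alpl, Col1a1, Col1a2, Ibsp and Dlx5. Phex and Dmp1 were under both floors. Of the 6, 4 had log2 ratios above 0, while Col1a1 and Col1a2 lay at −0.11 and −0.43. The summed signal of this list was 42344 in hPHD4 cells and 51295 in control cells. Of the 10 epithelial markers 1 was measured, of 9 endothelial 2, of 9 leukocyte 4 and of 7 skeletal muscle 1.

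Among the 41 adhesion genes 39 had a probe set annotated to them alone, and Itga1 and Ptk2 had none and were not analysed here. The 39 genes had 90 probe sets, of which 37 lay above the floor in both clones, 5 in hPHD4 cells only, 4 in control cells only and 44 in neither. Measured in both clones were 19 genes. A further 2, Itga2 and Itgb7, were above the floor in control cells only, and 18 were above it in neither. The share measured was 48.7% of the adhesion genes with a probe set and 60.1% of all genes.

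Most measured adhesion genes differed little between the clones. Of the 19 genes, Jam2 and Nectin2 were at least 1.5-fold higher in hPHD4 cells, a count of 2 against 8.94% of all 7452 measured genes. At least 1.5-fold lower was 1 gene, Itga7, against 5.22% of all measured genes. No gene of the 19 reached 2-fold, a change seen in 1.89% of all measured genes upward and in 0.98% downward. The median log2 ratio was 0.02 over the 19 genes and 0.03 over all measured genes, with 10 adhesion genes above 0 and 9 below. These shares lie near the background. In lysates of whole cultures, fewer cells that carry a transcript and less of it per cell cannot be told apart. The upward side of the background depends on scaling: 63.1% of all genes past 1.5-fold were higher in hPHD4 cells, but 50.9% after quantile normalization and 50.1% after loess correction. In the dimmest group of genes, which held 10 of the 19, 16.3% of all genes were at least 1.5-fold higher and the median log2 ratio was 0.13.

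**Figure D1:**
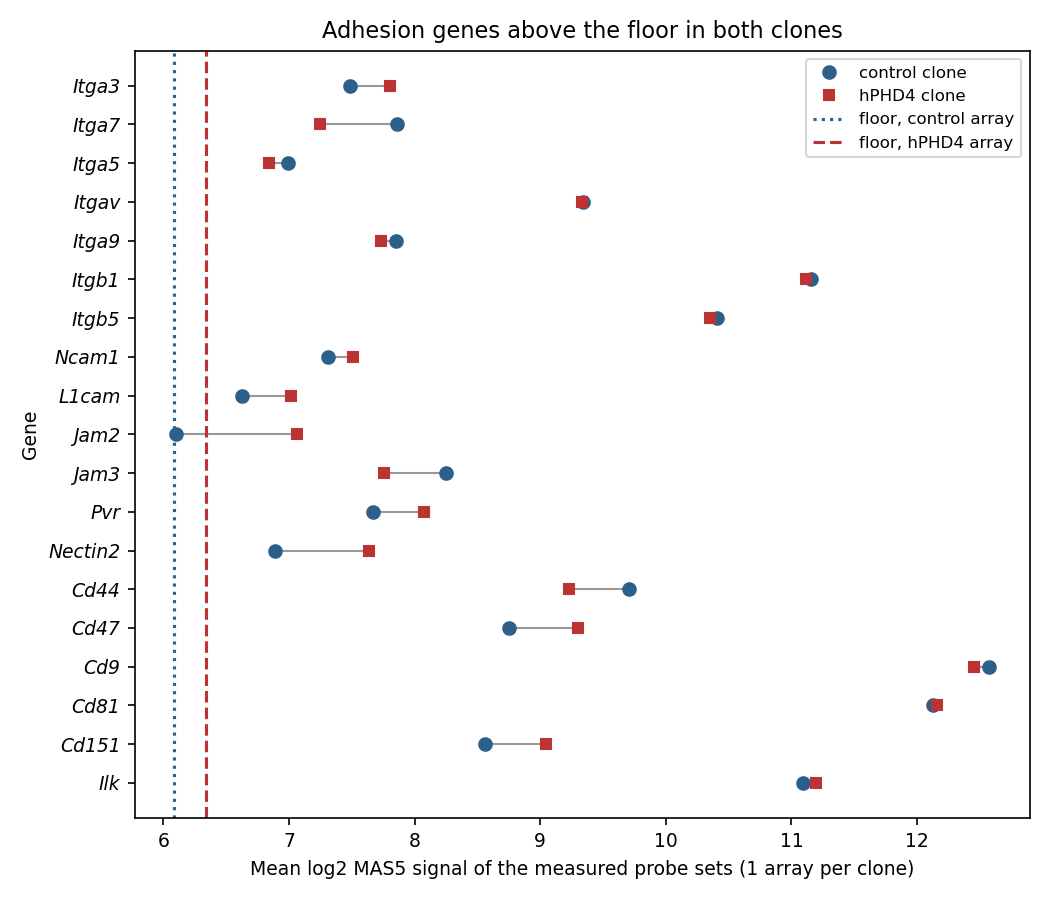
Mean log2 signal of the 19 adhesion genes measured in both clones, hPHD4 cells (squares) and control cells (circles), 1 array each; the vertical lines are the floors. The symbols of Itgav, Itgb1, Itgb5 and Cd81 nearly coincide, while Jam2 rests on the floor in control cells.

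**Figure D2:**
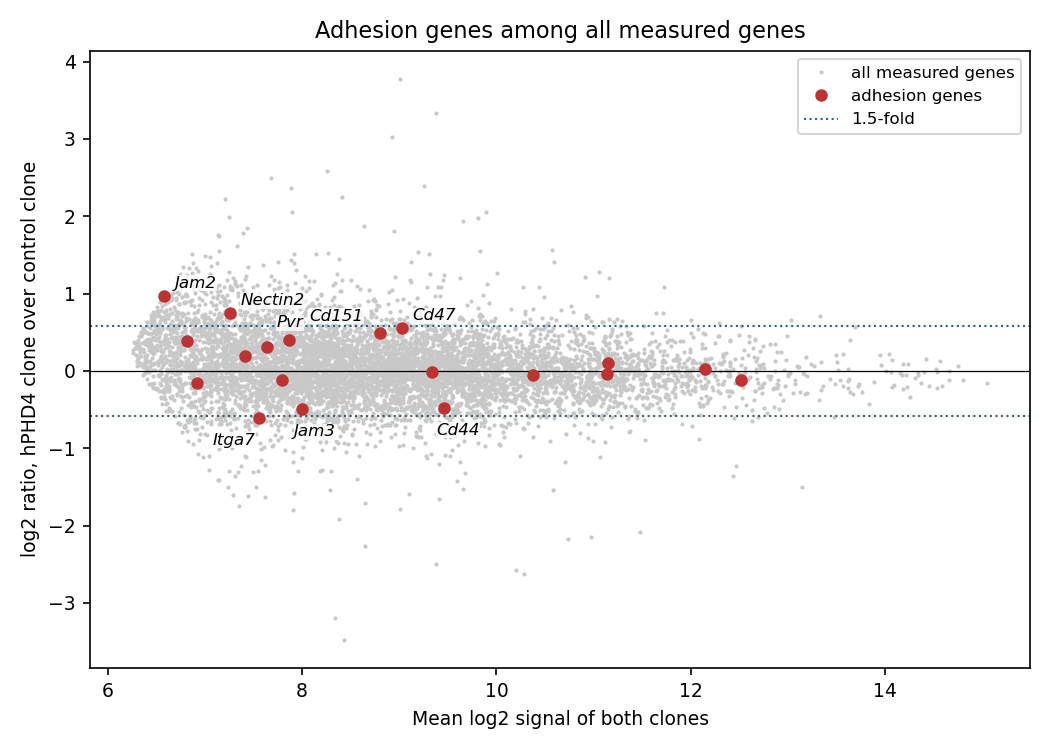
Log2 ratio against mean log2 signal for all 7452 measured genes (grey) and the 19 adhesion genes (red), with dotted lines at 1.5-fold. Jam2 and Nectin2 lie above the upper line and Itga7 below the lower one, all at the dim end.

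Printed next are the starts of the 4 genes that had at least 2 measured probe sets of one sign and a mean log2 ratio of at least 0.40 in either direction, a choice made after the values were seen: Nectin2, Cd47 and Cd151, higher in hPHD4 cells, and Cd44, lower. Each run is the strand of the gene from 250 bases before to 50 after its annotated start, from RefSeq on GRCm38.p6. Promoters of 24 of the 41 genes were found in that table. Capitals mark the core letters bound by HIF, ACGTG or GCGTG, or their complements CACGT and CACGC. The windows are at chr7:19749524-19749823 (minus strand), chr16:49855404-49855703 (plus strand), chr7:141467112-141467411 (plus strand) and chr2:102901616-102901915 (minus strand).
Nectin2: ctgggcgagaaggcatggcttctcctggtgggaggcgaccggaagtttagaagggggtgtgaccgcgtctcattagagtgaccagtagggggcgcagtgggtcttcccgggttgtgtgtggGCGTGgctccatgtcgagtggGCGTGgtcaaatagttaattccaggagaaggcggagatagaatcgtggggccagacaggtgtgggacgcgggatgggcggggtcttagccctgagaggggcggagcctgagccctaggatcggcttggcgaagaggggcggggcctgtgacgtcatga
Cd47: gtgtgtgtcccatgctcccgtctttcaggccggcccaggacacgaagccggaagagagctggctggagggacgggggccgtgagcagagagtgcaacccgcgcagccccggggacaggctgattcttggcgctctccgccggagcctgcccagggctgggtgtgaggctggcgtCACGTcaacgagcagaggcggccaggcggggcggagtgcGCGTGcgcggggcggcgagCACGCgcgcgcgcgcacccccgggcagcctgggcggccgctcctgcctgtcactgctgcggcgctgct
Cd151: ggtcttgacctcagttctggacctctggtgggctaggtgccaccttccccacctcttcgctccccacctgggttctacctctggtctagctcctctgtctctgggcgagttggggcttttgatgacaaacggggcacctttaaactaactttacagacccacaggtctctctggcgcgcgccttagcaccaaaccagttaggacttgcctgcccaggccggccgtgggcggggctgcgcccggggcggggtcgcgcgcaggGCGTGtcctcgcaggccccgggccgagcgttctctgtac
Cd44: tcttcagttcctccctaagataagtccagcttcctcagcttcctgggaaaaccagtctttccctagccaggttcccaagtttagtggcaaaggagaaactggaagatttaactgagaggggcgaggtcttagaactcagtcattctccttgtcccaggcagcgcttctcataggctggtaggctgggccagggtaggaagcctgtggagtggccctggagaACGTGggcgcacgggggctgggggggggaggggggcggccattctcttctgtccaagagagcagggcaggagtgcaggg

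Nectin2 held 2 such matches, Cd47 3, and Cd151 and Cd44 1 each. A match to these short letters is common: 43.8% of 32851 promoters of the same length held at least 1. Cd47 has a second listed start a few bases downstream with the same matches, and Cd151 a second start with 0. Matches were found both in genes that were higher and in the gene that was lower, and letters alone do not show that a factor binds.

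Of the 15 integrin chains with a probe set, 7 were measured in both clones (46.7%), against 60.1% of all genes. Of 6 beta chains, Itgb1 and Itgb5 were measured. Itgb1 is the common partner of most alpha chains that bind collagen, laminin or fibronectin, and Itgb5 pairs with the alpha-v chain to bind vitronectin. Itgb1 had signals of 1967 in hPHD4 cells and 2248 in control cells on one probe set, and of 2495 and 2321 on another. The first was lower and the second higher in hPHD4 cells, so the log2 ratio of −0.04 lay well inside the SD of 0.28. Its other 4 probe sets were under both floors. Itgb5 was measured on all 4 of its probe sets, with signals from 878 to 2264 in hPHD4 cells and from 986 to 2320 in control cells. Their log2 ratios ran from −0.17 to 0.06, with a mean of −0.05. Itgb2, the beta chain of leukocyte integrins, Itgb3, the partner of alpha-v in the other classical vitronectin receptor, and Itgb4, the hemidesmosomal chain, were under both floors. Itgb7, a beta chain of lymphocyte integrins, had signals of 19.9 in hPHD4 cells and 72.7 in control cells. The control signal lay just above its own floor but below the 81.1 of the other array, so no fold is given. Of the 9 leukocyte markers with a probe set 4 were measured, Cd68, Csf1r, Lyz2 and Laptm5, at log2 ratios of 0.19 to 0.48, while Ptprc, Tyrobp and Cd79a were under both floors. Cd14 was above the floor in control cells only and Cd3e in hPHD4 cells only, and the summed signal of the list was 1061 in hPHD4 cells and 877 in control cells.

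Among alpha chains that bind collagen or laminin, Itga7 was the gene past 1.5-fold. Itga7 encodes the laminin-binding chain of skeletal muscle, and its single probe set had signals of 152 in hPHD4 cells and 232 in control cells. It was 1.52-fold lower in hPHD4 cells, a log2 ratio of −0.61 against an SD of 0.40. Over the alternatives that measured it, the log2 ratio ran from −0.69 to −0.61, and under a 60th-percentile floor the gene was not measured. The summed signal of the 7 skeletal muscle markers was 352 in hPHD4 cells and 373 in control cells. Myod1, Myog, Myf5, Ckm and Actn2 were under the floor in both clones, Tnnt1 was above it in control cells only, and Des was measured, at a log2 ratio of 0.42. Itga3, the laminin-binding chain of many adherent cells, had signals of 223 and 180 on 1 of its 3 probe sets, a log2 ratio of 0.31 within the SD of 0.40. Itga2, a collagen-binding chain, had signals of 46.4 and 82.0. It was above the floor in control cells only, and against the floor of the other array it was at least 1.01-fold lower in hPHD4 cells. Itga6, a further laminin-binding chain, was under both floors on both of its probe sets.

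The alpha chains Itgav and Itga5, which recognise the RGD sequence of fibronectin and vitronectin, had gene log2 ratios within the probe-set SD. Those ratios leave out probe sets that were above the floor in 1 clone only. Itgav, the alpha-v chain, had signals of 644 in hPHD4 cells and 650 in control cells on its probe set above both floors, a log2 ratio of −0.01. Its other 2 probe sets straddled the floors in opposite directions, one above the floor only in hPHD4 cells and one only in control cells. Itga5, the fibronectin receptor chain, had signals of 114 and 127 on one probe set, a log2 ratio of −0.16. On the other it had 109 and 63.5, where the control signal was under the floor, so this probe set was at least 1.61-fold higher in hPHD4 cells. The probe sets of Itga5 thus pointed in opposite directions, and under a 20th-percentile floor, which admits both, the log2 ratio was 0.31. Itga8 was under both floors. Itga9 and Itga4 were kept as a class apart from the RGD-binding chains. Itga9, which binds tenascin and VCAM1 among others, was measured on all 3 of its probe sets. Its signals were 106, 230 and 393 in hPHD4 cells and 108, 270 and 427 in control cells. All 3 were slightly lower in hPHD4 cells, and the mean log2 ratio of −0.12 was within the SD of 0.40. Itga4, the other chain of this class, was under both floors on all 3 probe sets. Of the 7 integrin chains measured, 6 had log2 ratios below 0 and 1 above, with a median of −0.05. Among all measured genes, 3458 of 7452 lay below 0. Itga5 counts below 0 through its 1 measured probe set, which ends in _s_at. It was not measured when probe sets ending in _x_at or _s_at were left out. The same 6 to 1 split was found after quantile normalization, loess correction or subtraction of chromosome medians, but under a 20th-percentile floor 4 chains of 8 lay above 0 and 4 below. Each of the 6 chains other than Itga7 lay closer to 0 than the SD at its brightness.

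**Figure D3:**
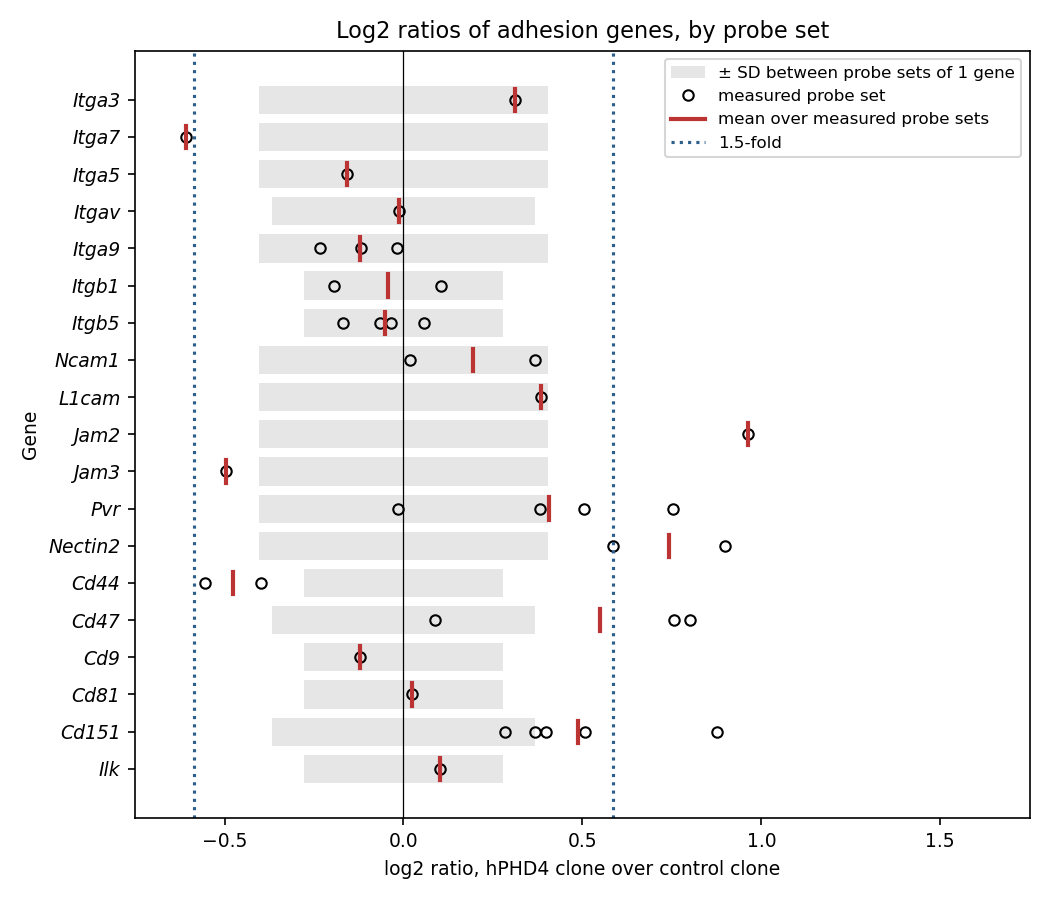
Log2 ratio, hPHD4 over control cells, of each measured probe set (open circles) and its mean per gene (red bars) for the 19 adhesion genes; grey bands span ± 1 SD between probe sets of a gene at that brightness, and dotted lines mark 1.5-fold. The integrin chains other than Itga7 sit inside the band, and the probe sets of Nectin2 and Cd44 lie outside it on opposite sides.

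None of the 7 cadherins passed the floor in either clone. Their 11 probe sets were all under the floor, while 31.6% of all genes were under the floor in both clones. Cdh2 (N-cadherin) and Cdh11 (cadherin 11, also called OB-cadherin) are the cadherins best known from osteoblasts. The single probe set of Cdh11 had log2 signals of 4.94 in hPHD4 cells and 0.02 in control cells, and both probe sets of Cdh2 were likewise under the floors, with the higher at 5.00 and 3.48. Under the floor such gaps carry no order, so no fold is given. Cdh5, the endothelial VE-cadherin, came closest to the floor in hPHD4 cells, at a log2 signal of 6.16 on both probe sets against a floor of 6.34; control cells had 3.14 and 2.70. The muscle cadherin Cdh15 had log2 signals of 5.94 and 5.78. Cdh3 (P-cadherin) had 4.89 and 4.93, the highest of 3 probe sets of Cdh13 (T-cadherin) had 4.25 and 5.50, and Cdh1 (E-cadherin) was under both floors as well. Under a 20th-percentile floor 2 of the 7 were measured, with a median log2 ratio of 0.06. Cdh22, a cadherin outside the 7 that was named after its value was seen, was measured on 1 probe set, at a log2 signal of 8.03 with hPHD4 against 7.69 without it. A signal under the floor does not show that a gene is silent. Of the 10 epithelial markers, Grhl2 was measured, at a log2 ratio of −0.06, Krt8 was above the floor in hPHD4 cells only and the other 8, Epcam among them, were under both floors. The summed signal of that list was 743 in hPHD4 cells and 509 in control cells, and its part in the cadherin signals was not tested.

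**Figure D4:**
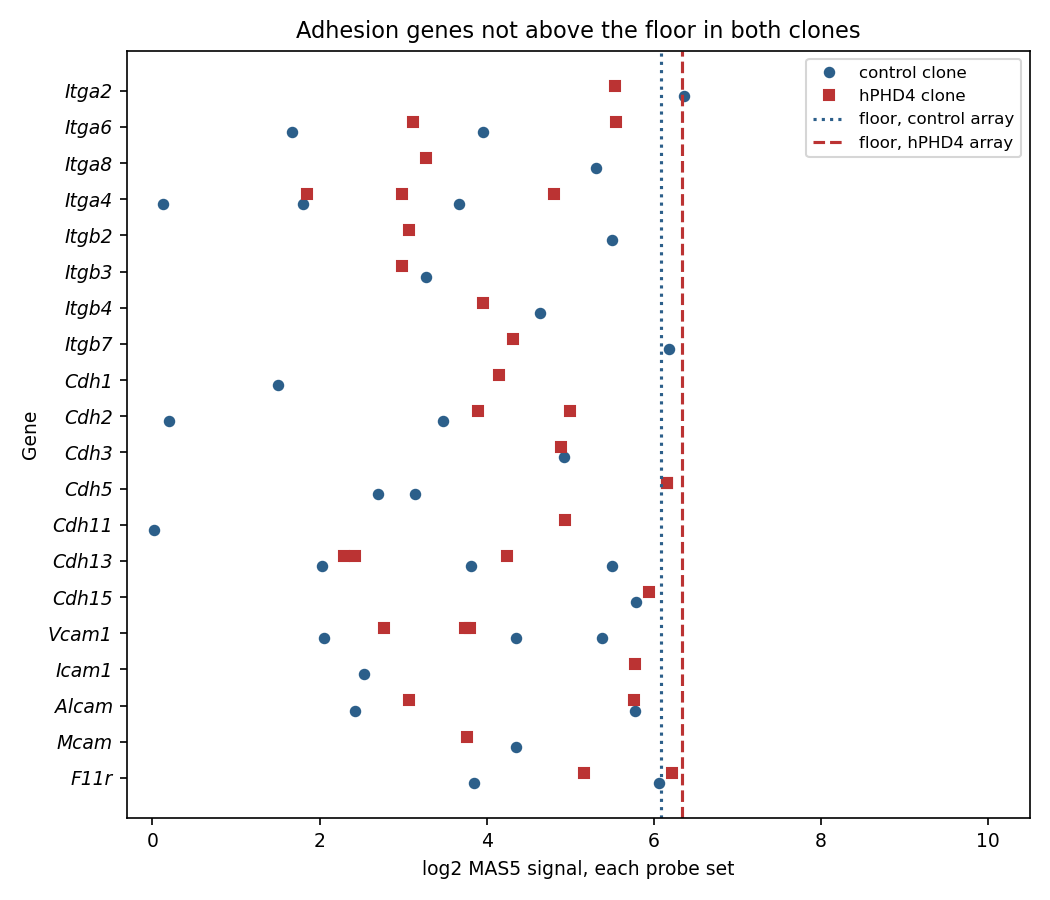
Log2 signal of every probe set of the 20 adhesion genes not measured in both clones, hPHD4 cells (squares) and control cells (circles), with the floor of each array. Every cadherin probe set lies left of the floor of its own array, and Itga2 and Itgb7 pass the control floor alone.

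Receptors of the immunoglobulin type held both genes that were at least 1.5-fold higher. Of the 11, 6 were measured, 5 of them with ratios above 0, and the median log2 ratio was 0.40. All 6 belonged to the dimmest group of genes, whose own median was 0.13, and after loess correction the median of the 5 still measured was 0.21. Jam2, a junctional adhesion molecule of endothelial and other cells, had signals of 134 in hPHD4 cells and 68.5 in control cells on its measured probe set. It was 1.95-fold higher, a log2 ratio of 0.96 against an SD of 0.40. The control signal lay just above the floor of 67.8. A second probe set, at 98.8 and 47.5, was above the floor in hPHD4 cells only and gave a bound of at least 1.46-fold higher, and the remaining 2 were under both floors. After loess correction no probe set of Jam2 was measured in both clones, and with dim signals raised to a common floor the log2 ratio was 0.25. The endothelial marker list held 9 genes, of which Kdr and Egfl7 were measured, at log2 ratios of 0.07 and −0.26, while Pecam1, Tek, Tie1, Esam and Cldn5 were under both floors and Flt1 and Emcn above the floor in hPHD4 cells only. The summed signal of the list was 1039 in hPHD4 cells and 1030 in control cells.

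Nectin2, a nectin of cell junctions that also serves as a ligand for receptors of natural killer and T cells, was measured on both of its probe sets. Its signals were 199 and 198 in hPHD4 cells and 133 and 106 in control cells. Both probe sets were higher in hPHD4 cells, at log2 ratios of 0.58 and 0.90, and their mean of 0.74 (1.67-fold) exceeded the SD of 0.40. Nectin2 lies on chromosome 7, where the median log2 ratio of 532 measured genes was 0.19, and less that median its log2 ratio was 0.56, short of 1.5-fold. On its brightest probe set alone, at 0.58, it also fell just short. Pvr, the mouse counterpart of the human poliovirus receptor and a relative of the nectins, lies on the same chromosome. Its 4 measured probe sets had signals of 197 to 340 in hPHD4 cells and of 152 to 293 in control cells. The probe set with the highest control signal differed little (290 and 293), while the other 3 were higher in hPHD4 cells, at log2 ratios of 0.38 to 0.75. One more probe set, with signals of 164 and 37.3, was above the floor in hPHD4 cells only and gave a bound of at least 2.42-fold higher. The mean log2 ratio of Pvr was 0.41, at the edge of its SD of 0.40; it was −0.01 on the brightest probe set alone and 0.75 under a 20th-percentile floor.

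Jam3, a junctional adhesion molecule that binds Jam2 across cell contacts, was the one immunoglobulin-type gene below 0. Its signals were 216 in hPHD4 cells and 305 in control cells on one probe set, a log2 ratio of −0.50. Its other probe set, at 86.8 and 46.8, pointed the other way with a bound of at least 1.28-fold higher, and under a 20th-percentile floor, which admits both, the log2 ratio was 0.20. The probe sets of Jam3 thus give no single direction. The neural adhesion receptors L1cam and Ncam1 were within the SD. L1cam had signals of 129 and 98.9 on 1 of 2 probe sets, a log2 ratio of 0.39. Ncam1 had 179 and 139 on one probe set and 184 and 182 on another, and its mean log2 ratio was 0.19. A further probe set of its 6, at 54.7 and 77.1, was above the floor in control cells only. Under a 20th-percentile floor the log2 ratio of Ncam1 was −0.13. Vcam1, Icam1, Alcam, Mcam and F11r were under both floors on all their probe sets. Vcam1 and Icam1 are receptors that cytokines induce on endothelium and stroma. F11r came closest, at log2 signals of 6.22 and 6.07, each just under the floor of its array.

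Cd44 and Cd47 lay on opposite sides. Cd44, the hyaluronan receptor, had signals of 916 in hPHD4 cells and 1346 in control cells on one probe set and of 392 and 517 on the other. Both were lower in hPHD4 cells, at log2 ratios of −0.55 and −0.40, and the mean of −0.48 (1.39-fold lower) exceeded the SD of 0.28. Over all alternatives run, the log2 ratio of Cd44 stayed between −0.59 and −0.48, and less the median of its chromosome 2 (0.11) it passed 1.5-fold. Cd47, the receptor of thrombospondin 1 that also signals to SIRP alpha on phagocytes, had signals of 390, 406 and 1575 in hPHD4 cells and of 366, 241 and 904 in control cells. The first probe set differed little, at a log2 ratio of 0.09, and the other 2 were higher in hPHD4 cells, at 0.76 and 0.80. The mean of 0.55 (1.46-fold higher) lay just outside the 1.5-fold threshold, as Itga7 at 1.52-fold lay just inside it. It exceeded the SD of 0.37, and with the brightest probe set alone it was 0.80. Thbs1, its ligand, had a log2 ratio of 0.35 over 2 probe sets, against an SD of 0.28. Sirpa, its counter-receptor, had 0.56 on 1 of 3 probe sets, against an SD of 0.40. The Sirpa signals were 125 in hPHD4 cells and 85.3 in control cells, against floors of 81.1 and 67.8. Thbs1 and Sirpa, and Fn1 and Ctnnb1 among the partner genes described last, lay within 1.5-fold and were named after their values were seen.

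Of the tetraspanins, Cd151 was higher and the other 2 were near 0. Cd151, which binds laminin-binding integrins, had 5 measured probe sets, with signals of 146 to 1049 in hPHD4 cells and of 113 to 572 in control cells. All 5 were higher in hPHD4 cells, at log2 ratios from 0.28 to 0.88. The mean of 0.49 (1.40-fold) exceeded the SD of 0.37, and its chromosome 7 median was 0.19; less that median it was 0.30. Of the 5 probe sets, 3 are of a kind (ending in _x_at) that may cross-hybridise, and without them the log2 ratio was 0.38. Cd9 had signals of 5604 in hPHD4 cells and 6095 in control cells, and Cd81 of 4561 and 4484. Their log2 ratios of −0.12 and 0.02 were within the SD of 0.28. Ilk had signals of 2343 and 2183 and a log2 ratio of 0.10.

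Across the 19 genes, 8 lay farther from 0 than the SD at their brightness, against 35.5% of all measured genes. Of these 8, Jam2, Nectin2, Cd47, Cd151 and Pvr had means above 0, and Itga7, Jam3 and Cd44 below 0. For Jam3 the sign turned under a 20th-percentile floor, and for Pvr on its brightest probe set or under a 60th-percentile floor. Pvr passed its SD narrowly, at 0.41 against 0.40. Its log2 ratio was 0.34 after quantile normalization or loess correction, and 0.22 less the median of chromosome 7. Less that median, Cd151 was 0.30, under its SD of 0.37. Of the 9 genes with at least 2 measured probe sets, 6 had all of them on the same side of 0 and 3 had not.

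Partners of the adhesion receptors were read from 5 lists with 119 genes, of which 106 had a probe set and 60 were measured. Among the 60, 6 were at least 1.5-fold higher and 1 lower, with a median log2 ratio of 0.12, against 8.94% higher, 5.22% lower and a median of 0.03 over all measured genes. The higher count is near the background, and the genes named are a description. In the list of integrin ligands 17 of 30 genes were measured, 3 at least 1.5-fold higher and 1 lower, with a median of 0.11. Higher were Ccn2 (connective tissue growth factor), at a log2 ratio of 1.10 on 1 probe set, and Ibsp (bone sialoprotein), at 1.09. Ibsp had 2 probe sets, at 0.61 and 1.56. Also higher was Col4a1, a basement membrane collagen, at 0.67 on 2 probe sets. Lower was Col6a1, of collagen VI, at −1.28 on 1 probe set. Fn1 (fibronectin) had signals of 2797 in hPHD4 cells and 3516 in control cells, a log2 ratio of −0.33 against an SD of 0.28. Postn (periostin) was above the floor in control cells only and at least 2.42-fold lower. Tgfbi, another ligand of this list, was at least 11.1-fold higher on the brightest of its 4 probe sets.

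Among the focal adhesion proteins 23 of 34 were measured, with 2 at least 1.5-fold higher, 0 lower and a median log2 ratio of 0.17. These were Git1, a scaffold of focal adhesion turnover, at 0.74 on 1 probe set, and Zyx (zyxin) at 0.62 on 1 of 2. Src, the kinase that acts with FAK, was above the floor in hPHD4 cells only and at least 2.02-fold higher, while Parvg and Tns2 were above it in control cells only and at least 1.16-fold and 1.12-fold lower. Of the cadherin and nectin partners 5 of 10 were measured, all 5 with ratios above 0 and a median of 0.41. Over all measured genes 3994 of 7452 had ratios above 0, and a list of 5 genes is too short to read as a shift. Of the 5, 1 was at least 1.5-fold higher, Ctnnd1 (p120 catenin), at 0.62 on 1 probe set. Ctnnb1 (beta-catenin) had a mean log2 ratio of 0.41 over 3 probe sets at 0.18 to 0.57, larger than its SD of 0.28. All 5 partners stayed above 0 after quantile normalization, loess correction or subtraction of chromosome medians, while under a 20th-percentile floor 6 of 7 were above 0. Of 36 other cadherins and adhesion receptors 14 were measured and 0 passed 1.5-fold in either direction, with a median of −0.05, and of 9 other integrin chains 1 was measured. Among those above the floor in 1 clone, Cadm4 was at least 1.77-fold higher.

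**Figure D5:**
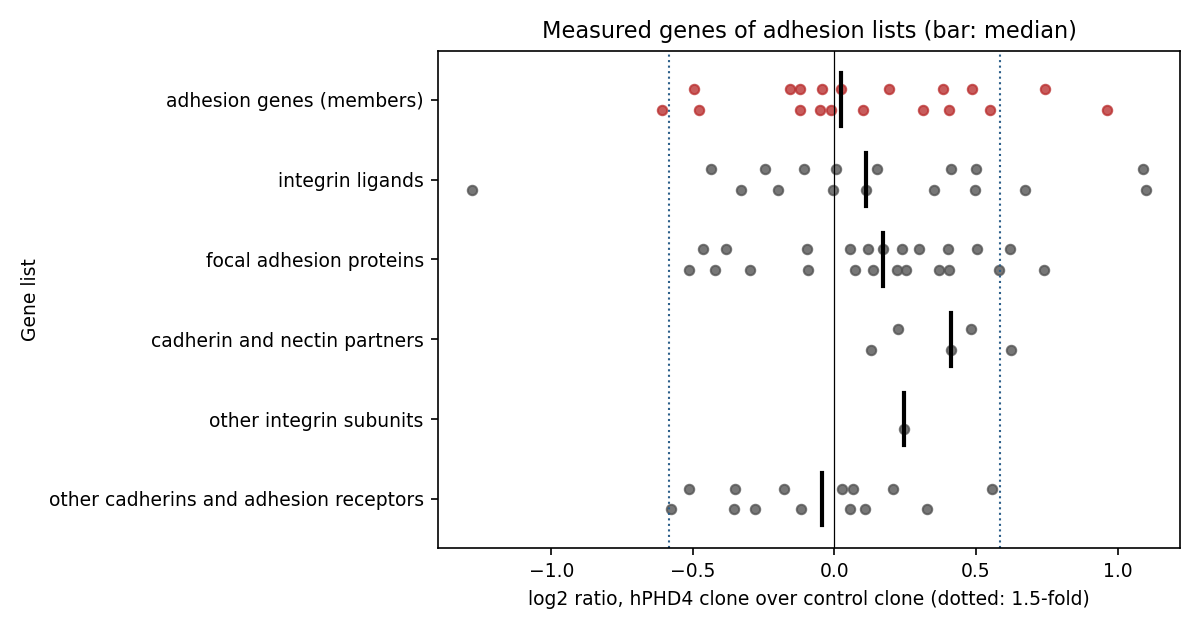
Log2 ratio, hPHD4 over control cells, of each measured gene among the adhesion genes (red) and in 5 lists of partner genes (grey), with the median of each as a black bar and dotted lines at 1.5-fold. The adhesion genes centre on 0.02, and all 5 measured cadherin and nectin partners lie above 0.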

How the data were processed

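RNA of 2 LM8 clones was hybridised to 1 Affymetrix array each. Per the submitters' processing notes, MAS5 produced the deposited log2 signals (version not given in the sources used here). Log base and global scaling were read from the values: with 2% trimmed at each end, the mean linear signal was 500.2 on both arrays. Of 22690 probe sets, 64 were controls and 20380 had 1 gene symbol; 691 with several and 1555 with none named no gene, and GRCm38.p6 gene numbers updated 0 symbols. No further scaling was applied. No SD between replicates exists, and the number of arrays limits the precision.

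All adhesion genes could be named. Full values went to those past 1.5-fold and to the member with the highest signal in each class; others were named where probe sets differed. That choice ranks signals of different probe sets; no result compares them as levels. The members and lists were chosen with earlier results of these data known. Where a probe set exceeded the floor in 1 clone, the bound is its signal over the higher of the other array's floor and the dim signal. For a partner gene with several probe sets, the bound given is that of its brightest. Alternatives covered scaling, floor, filter, probe set choice, chromosome medians and threshold. The steps were tested on simulated data with Python 3.11.15, numpy 2.4.6 and pandas 2.3.3.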

Additional observations from a re-analysis of the deposited data

How the results depend on the processing

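No paired analysis was possible because each clone had 1 array, and no replicate could be left out. The count of adhesion genes at least 1.5-fold higher, 2 as reported, was 1 after loess correction, with dim signals raised to a common floor or with chromosome medians subtracted, and 0 under a 60th-percentile floor or at a 2-fold threshold. It was 3 under a 20th-percentile floor (Jam2, Pvr and Nectin2) and 3 when each gene was represented by its brightest probe set (Jam2, Cd47 and Cd151, without Nectin2). The count lower, 1 as reported, was 2 under a 20th-percentile floor (Itga2 and Itga7) or with chromosome medians subtracted (Itga7 and Cd44), and 0 under a 60th-percentile floor or at 2-fold. Under a 60th-percentile floor 11 genes were measured, in place of 19, by the construction of that setting. Over all genes, the number past 1.5-fold follows the floor as well: the percentage higher was 8.94 as reported, 16.4 under a 20th-percentile floor and 4.71 under a 60th-percentile floor. The median of the adhesion genes lay between −0.04 and 0.09 in every setting run. Of 142 values of single genes under the alternatives, 131 kept the sign of the reported value; the 11 others belonged to 8 genes, and 0 of them to a gene past 1.5-fold. The cause of these shifts was not tested.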
